A study of Mus musculus with 15 samples.

Results

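The endothelial genes are 10 genes that mark the cells lining blood vessels: Pecam1, Cdh5, Kdr, Flt1, Tek, Tie1, Vwf, Emcn, Plvap and Eng. They were chosen by name, as every probe whose platform gene symbol is one of the 10, which gave 16 of the 45281 probes on the array. All 10 genes had a probe, among 19057 genes with a symbol. They were followed as a measure of vessel RNA in pancreatic tumours, with and without ablation of αSMA-positive myofibroblasts.

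RNA came from pancreatic ductal adenocarcinoma (PDAC) of mice of mixed C57BL/6 and Balb/c descent that all carried the αSMA-tk transgene, and was hybridised to 15 arrays, 3 in each of 5 groups. The early control and late control groups received no ganciclovir (GCV), the early ablation group received it when lesions were at the PanIN (precursor lesion) stage, and the late ablation group received it at the PDAC stage. The fifth group had GCV at the PDAC stage together with anti-CTLA4, which blocks an inhibitory receptor of T cells. The alleles that drive the tumours, the ages and the sexes are not given in the sources used here. The viral thymidine kinase turns GCV into a poison of dividing cells, and it is driven here by the promoter of Acta2, which vascular smooth muscle and many pericytes also use. Whether the 3 arrays of a group stem from separate mice is not in the labels, and the p-values therefore reflect the variation among the arrays at hand, which may be technical.

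Endothelial cells hold together through junction proteins such as VE-cadherin and CD31, and they depend on VEGF and angiopoietin receptors for growth and stability. PDAC is known as a tumour with few open vessels within dense stroma. In RNA of whole tumours, fewer endothelial cells and less RNA per cell cannot be told apart.

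Between 38.5% and 43.5% of the probes on an array were above background (detection p-value under 0.05), with the early ablation arrays at 41.3% to 43.5% against 38.5% to 39.4% for early control. Acta2, the gene whose promoter drives the transgene, was not separated by the labels: its level was 11.44 to 12.43 on early control arrays, 10.98 to 13.58 on early ablation, 10.34 to 12.81 on late control and 10.56 to 12.55 on late ablation arrays. The anti-CTLA4 arrays, at 9.66 to 11.53, overlapped every other group and had the lowest group mean (10.89). Group names below are therefore those of the labels, not a measured loss of cells. The MHC class II gene H2-Ea was bright on early control replicates 2 and 3 (10.35 and 9.92) and lay between 4.44 and 5.11 on the other 13 arrays; its part in the early comparison was not tested. Levels are log2 signals after background correction and quantile normalization over the 15 arrays; tests among the first 4 groups used the same steps over their 12 arrays, which moved no member's level by more than 0.0159.

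The probe of the highest mean level stood for each gene. For 8 of the 10 genes that probe was above background on all 15 arrays. The Kdr probe was above background on 8 arrays and the Tie1 probe on 10, so much of what is measured for these 2 receptors lies at the limit of the array. Of the other 6 probes 4, for Pecam1, Kdr, Flt1 and Vwf, were above background on no array, while a further Pecam1 probe was above background on 15 arrays and a further Cdh5 probe on 13. A probe's brightness is not set against another probe's here.

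Pecam1 encodes CD31, an adhesion protein of endothelial junctions. Its level was 7.96, 7.19 and 7.82 on early control replicates 1 to 3 and 7.97, 7.83 and 8.68 on early ablation. It was 7.81, 6.17 and 7.56 on late control, 6.84, 7.37 and 6.40 on late ablation, and 7.15, 6.73 and 6.45 with anti-CTLA4. The group means fell in the order early ablation (8.16), early control (7.66), late control (7.18), late ablation (6.87) and anti-CTLA4 (6.77), and each group's arrays overlapped those of the next. The highest of the 15 values was on early ablation replicate 3 and the lowest on late control replicate 2.

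Cdh5, the gene of VE-cadherin, the adhesion protein of endothelial adherens junctions, gave the same order of group means, from 7.63 in early ablation to 6.95 with anti-CTLA4. Its values were 7.76, 6.61 and 7.50 on early control and 6.77, 7.94 and 8.20 on early ablation. They were 7.48, 6.19 and 7.61 on late control, 6.87, 7.83 and 6.19 on late ablation, and 7.57, 7.04 and 6.23 with anti-CTLA4. The SD within a group was 0.60 to 0.82, as large as the 0.69 that separated the highest group mean from the lowest, and every group overlapped its neighbours.

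Of the VEGF receptor probes, that of Kdr lay near background, so the receptors are not contrasted here. Flt1, which encodes VEGF receptor 1, a receptor that also acts as a trap for VEGF, was at 8.24, 7.73 and 8.69 on early control and at 8.63, 8.63 and 8.98 on early ablation. On late control it was at 8.60, 8.06 and 8.47, on late ablation at 7.43, 9.24 and 8.08, and with anti-CTLA4 at 8.72, 8.17 and 7.81. The late ablation arrays held both the lowest and the highest Flt1 value of the series. Kdr encodes VEGF receptor 2, the main signalling receptor for VEGF in endothelium, and its probe stayed between 4.75 and 5.57. It was above background on 2 of 3 early control, 2 of 3 early ablation, 1 of 3 late control, 0 of 3 late ablation and 3 of 3 anti-CTLA4 arrays.

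Tek and Tie1 encode the receptor of the angiopoietins and its orphan partner. Tek was at 7.05, 6.57 and 6.99 on early control, at 6.59, 5.82 and 7.25 on early ablation and at 6.95, 6.81 and 6.33 on late control. It was at 6.21, 6.74 and 5.67 on late ablation and at 6.35, 6.35 and 5.61 with anti-CTLA4. Its group means ran from 6.87 in early control to 6.10 with anti-CTLA4, with neighbouring groups overlapping throughout. Tie1 was above background on all 9 arrays of early control, early ablation and late control, on 1 of 3 late ablation arrays and on 0 of 3 anti-CTLA4 arrays. Its values were 5.80, 5.18 and 6.06 on late control, 4.94, 5.54 and 4.83 on late ablation, and 4.88, 5.01 and 4.84 with anti-CTLA4.

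Vwf encodes von Willebrand factor, the clotting protein that endothelial cells store and release; megakaryocytes and platelets carry it too. It spread most between groups, with 1.57 between the highest and the lowest group mean. The early control arrays were at 7.06, 6.21 and 6.52 and the early ablation arrays at 8.55, 7.75 and 8.21, so the lowest early ablation array lay above the highest early control array. The late control arrays were at 8.13, 6.64 and 7.72, the late ablation arrays at 7.61, 7.44 and 7.08, and the anti-CTLA4 arrays at 7.20, 7.78 and 6.00.

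Emcn (endomucin, a sialomucin of capillary and venous endothelium) and Plvap (the protein of the diaphragms of fenestrated endothelium) had the largest scatter within groups, with pooled SDs of 0.88 and 0.79. Emcn was at 9.17, 8.62 and 9.28 on early control, at 8.35, 9.30 and 10.22 on early ablation and at 9.81, 7.36 and 8.75 on late control. It was at 9.72, 9.40 and 7.75 on late ablation and at 8.96, 9.17 and 8.21 with anti-CTLA4. Plvap was at 9.38, 8.52 and 9.31 on early control, at 9.12, 9.93 and 10.34 on early ablation, at 10.10, 7.72 and 8.92 on late control, at 10.09, 9.31 and 8.29 on late ablation and at 9.07, 9.70 and 8.73 with anti-CTLA4. It had its highest value, 10.34, on the same early ablation array as Emcn and its lowest, 7.72, on the same late control array. Eng encodes endoglin, a co-receptor for BMP9 and TGF-β that stromal cells can also make. It was tightly grouped on late control arrays (8.18, 8.29 and 8.24) and widely spread on late ablation arrays (7.88, 8.97 and 7.37), with 8.02, 7.73 and 7.98 on early control.

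**Figure D1:**
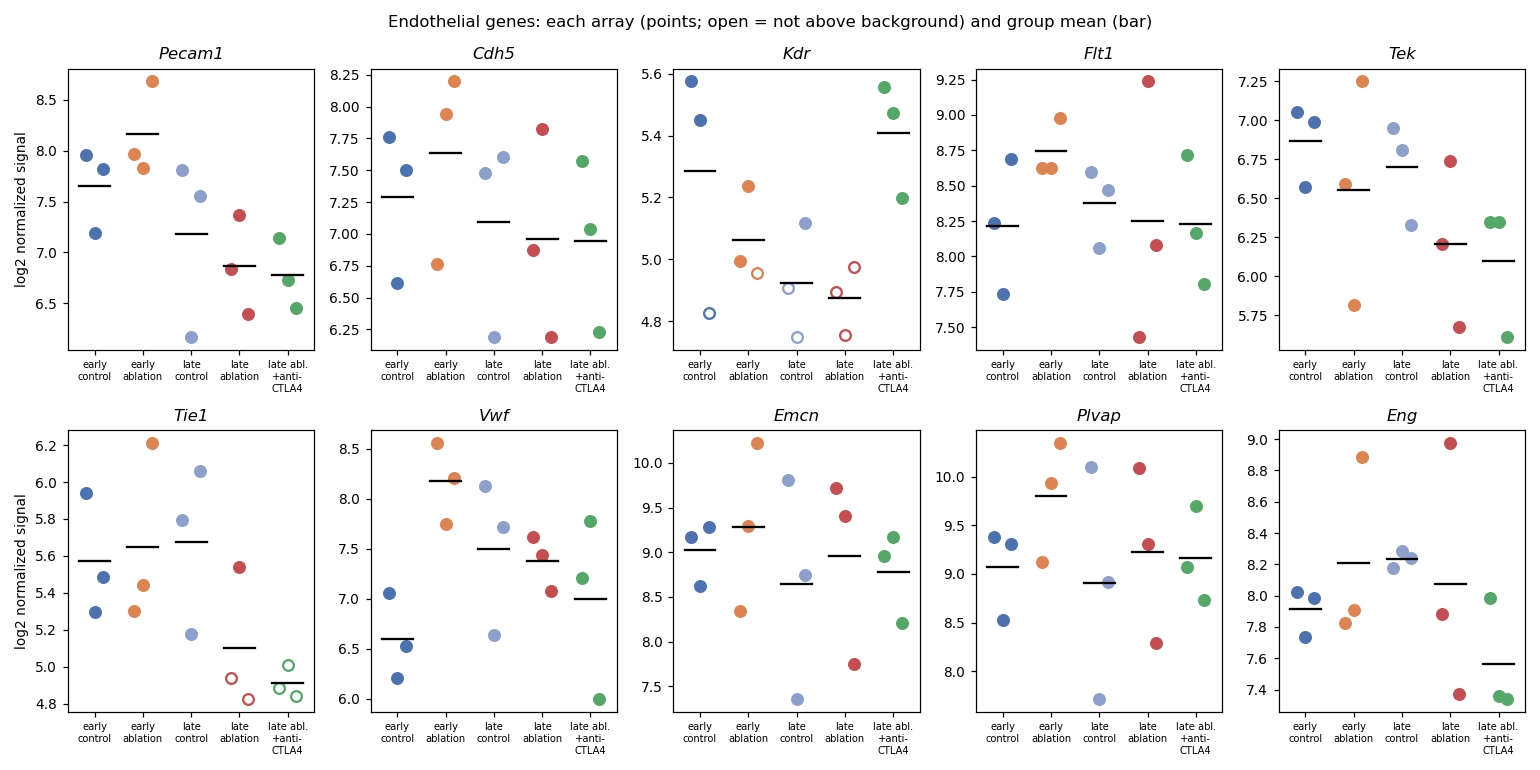
Log2 normalized signal of each endothelial gene (vertical axes, own scale per gene) in the 5 groups (horizontal axes); points are arrays, open points are arrays where the probe was not above background, and bars are group means (n = 3). Vwf is the gene whose early ablation arrays all lie above the early control arrays, and Cdh5, Emcn and Plvap overlap between every pair of groups.

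Early ablation was compared with early control to ask whether vessel RNA differed in tumours given GCV before invasive cancer. Vwf averaged 8.16 ± 0.40 (SD, n = 3) in early ablation and 6.59 ± 0.43 (SD, n = 3) in early control, a log2 difference of 1.58 (SE 0.37, 95% interval 0.77 to 2.38). It ranked 46 of 14633 features by p, with an unadjusted p of 0.0012, and did not pass Benjamini-Hochberg adjustment over all features in limma (adjusted p = 0.361). The differences of the other 9 genes ran from -0.32 for Tek and -0.22 for Kdr to 0.53 for Flt1 and 0.73 for Plvap, and all of their intervals contained 0.

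In that comparison limma called 0 of the 10 genes and 0% of all features. At an unadjusted p under 0.05, 1 of the 10 genes passed (Vwf), against 8.72% of all features. Vwf was also the 1 gene of 10 whose groups did not overlap, where 21.3% of all features did not overlap in either direction and 10.1% were higher in early ablation without overlap. The mean was higher in early ablation for 8 of the 10 genes, with a median difference of 0.32, against 48.3% of all features above 0 and a median of -0.01. Under median scaling, which moved the median of all features to 0.25, the members' median was 0.69. With that scaling 9 of 10 were higher, Tek among them, against 78.5% of all features above 0. The count of 8 under quantile normalization rested on early ablation replicate 3: without that array the median was 0.01 and 5 of 10 genes were higher. Without early control replicate 2 the median was 0.13, and without early ablation replicate 1 it was 0.59.

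The Vwf difference kept its direction, and its adjusted p stayed above 0.05, when arrays were left out. It was between 1.38 and 1.81 in the 6 fits that each left out 1 early array, and over all alternatives between 0.98 and 1.93, with 0.0604 as the lowest adjusted p. The Pecam1 difference was 0.50 (SE 0.42) with the probe used and 0.48 with the further probe, and that of Cdh5 was 0.34 (SE 0.53) against 0.10.

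Late ablation was compared with late control for the same question in established tumours. Of the 10 genes, limma called 0 (all adjusted p = 1.0, rounded), and 0 passed an unadjusted p under 0.05, where 0% and 2.1% of all features did. Tie1 had the largest difference, -0.58 (SE 0.32, unadjusted p = 0.095, adjusted p = 1.0), followed by Tek at -0.49 (SE 0.36, adjusted p = 1.0). Tie1 rested on a probe above background on 3 of 3 late control arrays and 1 of 3 late ablation arrays.

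Vwf, at 7.37 ± 0.27 (SD, n = 3) in late ablation and 7.49 ± 0.77 in late control, differed by -0.12 (95% interval -0.93 to 0.69). With the probes used, Emcn and Plvap were the 2 of 10 genes with a higher mean in late ablation. Both differed by 0.32, with SEs of 0.66 and 0.59. The further Cdh5 probe was 0.20 higher (SE 0.45), against -0.13 with the probe used. The further Pecam1 probe was at -0.25, against -0.31. Against 47.2% of all features, 2 of 10 genes were above 0. The groups overlapped for all 10 genes, where 4.4% of all features did not overlap. The median difference was -0.13, near that of all features (-0.01), and it was between -0.56 and -0.00 in the fits without 1 late array, with 0 to 5 genes higher. Without late control replicate 2, 0 of 10 genes were higher and without late ablation replicate 2 the median was -0.56; without late control replicate 1 or late ablation replicate 3, 5 of 10 were higher.

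**Figure D2:**
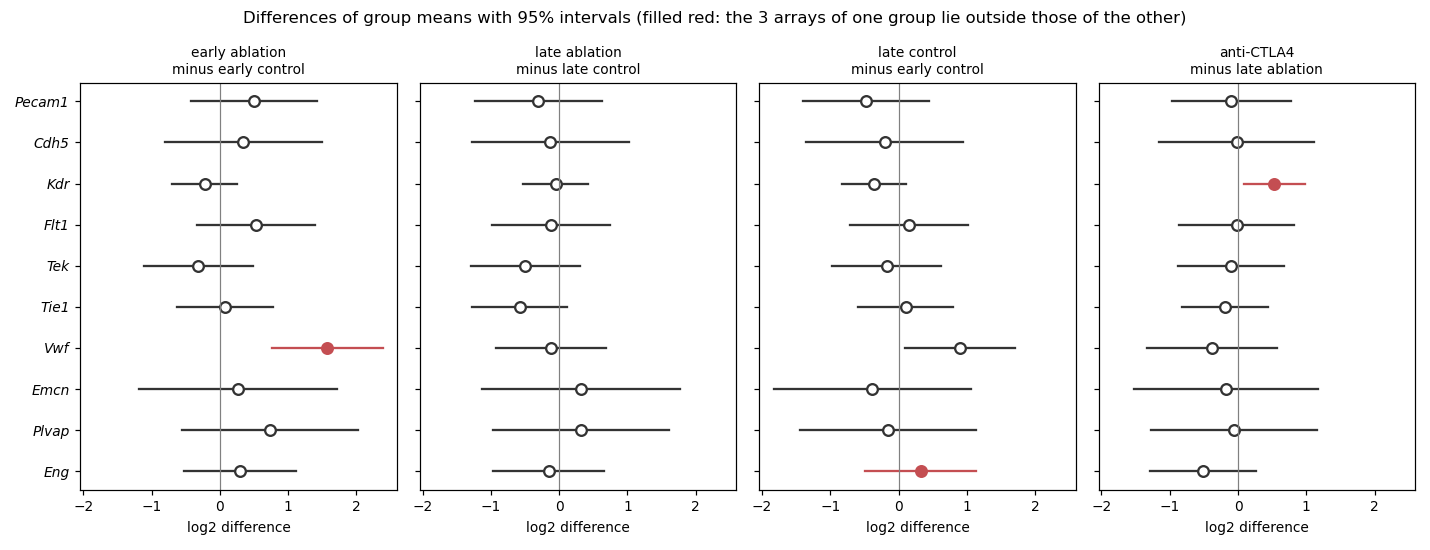
Log2 differences of group means (horizontal axes) for each endothelial gene with 95% intervals from limma (lines), in 4 comparisons with n = 3 arrays per group; filled red points mark genes whose 2 groups do not overlap. Vwf lies farthest from 0, at 1.58, in early ablation against early control, and most intervals in the other panels contain 0.

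The test of whether the ablation difference itself changed with stage was made in the same fit. For Vwf the late difference was lower than the early one by 1.70 on the log2 scale (difference -1.70, SE 0.52, unadjusted p = 0.0073), with an adjusted p of 0.984 in limma. The other 9 genes lay between -0.81 (Pecam1) and 0.17 (Kdr), and 8 of 10 were below 0, against 49.9% of all features above 0. The further Cdh5 probe was at 0.10 (SE 0.64), against -0.47 with the probe used, and the further Pecam1 probe at -0.73. limma called 0 of the 10 genes and 0% of all features; Vwf alone of the 10 passed an unadjusted p under 0.05, as did 4.65% of all features. Averaged over both stages, 7 of 10 genes were higher with ablation, against 47.8% of all features, and the difference of Vwf was 0.73 (SE 0.26, unadjusted p = 0.017, adjusted p = 0.862), with 0 of 10 genes called by limma, as for 0% of all features, and 1 of 10 at an unadjusted p under 0.05, against 5.64% of all features. The count of higher genes fell to 3 without late ablation replicate 2 (median -0.08), and to 4 without early ablation replicate 3 (median -0.03) or late control replicate 2 (median -0.07). These 2 measures use the same arrays as the comparisons above. Median scaling moved the median of all features to -0.23 in the first and 0.14 in the second.

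The control groups differed in label only by the stage they were matched to. Vwf averaged 0.90 higher in late control than in early control (SE 0.37, unadjusted p = 0.032, adjusted p = 0.443 in limma), with overlapping groups: late control replicate 2, at 6.64, lay within the early control range. With that array left out the difference was 1.33 (adjusted p = 0.276), and with late control replicate 1 left out it was 0.58. Eng was higher on every late control array than on any early control array, by 0.32 on average (SE 0.37, adjusted p = 0.807), while 17.9% of all features did not overlap between these groups and 8.86% were higher without overlap. limma called 0 of the 10 genes and 0% of all features, with Vwf the 1 gene at an unadjusted p under 0.05, against 9.98% of all features. Pecam1 differed by -0.48 with the probe used and by 0.06 (SE 0.38) with the further probe. Cdh5 differed by -0.20 and -0.66. The members' median was -0.16 with 4 of 10 higher, against 49.2% of all features. Under median scaling the members' median turned to 0.05 with 7 of 10 higher. That scaling moved the median of all features to 0.15, with 66.4% of them above 0. Without late control replicate 2 the members' median was 0.28 with 8 of 10 higher.

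The anti-CTLA4 arrays were deposited in a table of their own, so the antibody and the table cannot be told apart. Kdr was at 5.56, 5.47 and 5.20 on these arrays and at 4.89, 4.76 and 4.97 on late ablation arrays, where its probe was above background on 0 of 3 arrays. The groups did not overlap, and Kdr was at least 1.27-fold higher with anti-CTLA4, a bound set by the lowest signal above background on each array. Its unadjusted p was 0.024 and its adjusted p 0.552 in limma.

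Of the 10 genes 0 were called by limma against late ablation, where 0.00662% of all features were. Kdr was the 1 gene at an unadjusted p under 0.05 and the 1 gene without overlap, against 7.76% and 10.3% of all features. Of all features 49.3% were higher. With the probes used, the other 9 genes were all lower with anti-CTLA4, from -0.02 for Cdh5 to -0.51 for Eng, with intervals containing 0. That direction rested on single arrays: without anti-CTLA4 replicate 3, 8 of 10 genes were higher, and without late ablation replicate 2, 7 of 10. With array weights 6 of 10 were higher. It also rested on the probe for Pecam1, whose further probe was 0.45 higher (SE 0.36), against -0.10 with the probe used. The further Cdh5 probe was at -0.57 (SE 0.48).

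Against late control, which shares its anti-CTLA4 arrays with the comparison above, Tie1 had an unadjusted p of 0.021 and an adjusted p of 0.706 in limma. Its probe was above background on 3 of 3 late control arrays and 0 of 3 anti-CTLA4 arrays, and the level was at least 1.47-fold lower. With limma's array weights its adjusted p was 0.0486, a setting in which 838 of all features were called. Kdr, above background on 1 of 3 late control arrays, was 0.48 higher (unadjusted p = 0.038, adjusted p = 0.769) and Eng was at 7.99, 7.36 and 7.34 with anti-CTLA4, below all 3 late control arrays (difference -0.67, SE 0.36, adjusted p = 0.866). limma called 0 of the 10 genes and 0.00662% of all features, and 2 of 10 (Tie1 and Kdr) passed an unadjusted p under 0.05, against 6% of all features. The groups did not overlap for these 2 genes and Eng, 3 of 10, where 9.4% of all features did not overlap. Of the 10 means 3 were higher with anti-CTLA4 (median -0.28), as were 47.2% of all features, and without anti-CTLA4 replicate 3 there were 5 (median 0.03). The further Pecam1 probe was 0.20 higher (SE 0.36), against -0.40 with the probe used. The further Cdh5 probe was at -0.36, against -0.15.

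Arrays of the same group differed widely. Averaged over the 10 genes, each centred on its own mean, early ablation replicate 3 was highest at 0.86, and it held the highest value of 6 of the 10 genes. At the other end, late control replicate 2 was at -0.62, late ablation replicate 3 at -0.67 and anti-CTLA4 replicate 3 at -0.69. These 3 arrays, from 3 groups, held the lowest value of 4, 2 and 3 genes. Within late ablation the mean ran from -0.67 to 0.32, and within late control from -0.62 to 0.44.

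**Figure D3:**
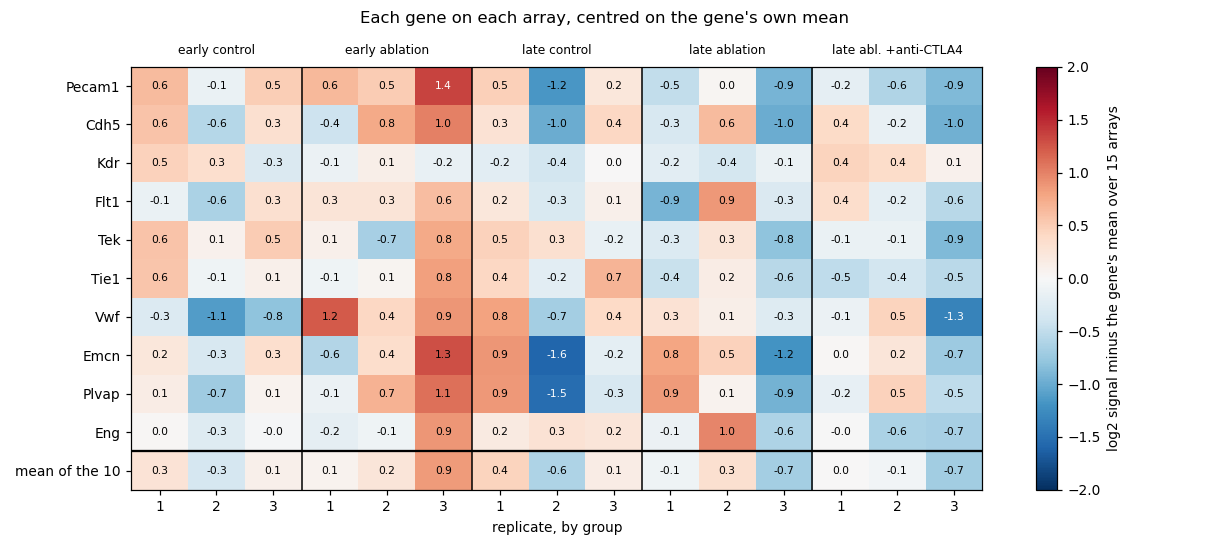
Log2 signal of each endothelial gene minus that gene's mean over the 15 arrays (colour and printed number), with arrays in columns by group and the mean of the 10 genes in the bottom row. The bottom row runs from -0.7 to 0.9, and high and low columns occur within the same group.

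The genes varied together from array to array. Of the 45 pairs, 40 had a Pearson correlation above 0 over the 15 arrays, with a median of 0.48, and 42 did after group means were taken out, with a median of 0.53. Emcn and Plvap were the closest pair: Pearson r was 0.94 and Spearman rho 0.93 (n = 15 arrays, permutation p = 1e-05 for both, the smallest that 100000 resamples can give, adjusted over the 45 pairs 0.00045). It was 0.96 over deviations from group means and 0.88 without the 2 arrays farthest from the Emcn median. Pecam1 and Cdh5 had r = 0.81 and rho = 0.71 (permutation p = 0.00033 and 0.0037, adjusted 0.0049 and 0.024), and 0.71 without the 2 farthest arrays. All these points share the tumour's mixture of cells and the array's background, so the values describe these arrays and do not speak of shared control.

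Cdh5 followed the mean of the other 9 genes most closely (r = 0.89), then Pecam1 (0.86), Emcn (0.79), Tie1 (0.74) and Plvap (0.73). Flt1 (0.63), Eng (0.61), Vwf (0.56) and Tek (0.55) stood lower. Kdr had r = -0.11, with 4 of its 9 pair correlations above 0 and the lowest of all pairs with Eng (-0.45); its probe was above background on 8 arrays.

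**Figure D4:**
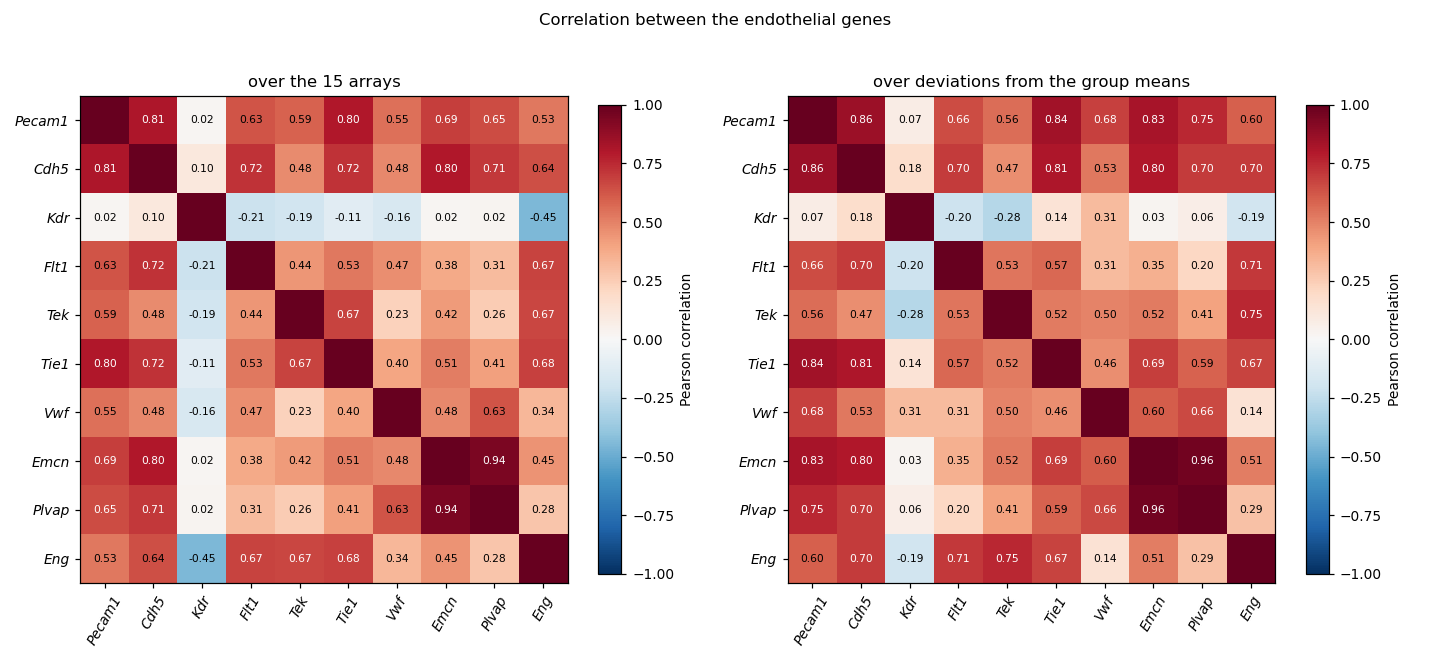
Pearson correlation of each pair of endothelial genes over the 15 arrays (left) and over deviations from group means (right), as colour and printed number. Emcn and Plvap reach 0.94 and 0.96, and the Kdr row runs from -0.45 to 0.10 in the left panel and from -0.28 to 0.31 in the right.

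Outside the 10 genes, those whose levels followed the members' mean most closely among 11914 genes were Esam (r = 0.94), an endothelial adhesion molecule, and Mmrn2 (0.93), a matrix protein of endothelium. Rgl1 (0.90), Cd93 (0.90), Ramp2 (0.89), Nid2 (0.89), Sox18 (0.88) and Col4a2 (0.87) came next. Cd93 is an endothelial surface lectin, Ramp2 the partner of the adrenomedullin receptor, Sox18 a vascular transcription factor, and Nid2 and Col4a2 are parts of the basement membrane. Esam, Mmrn2, Nid2, Sox18 and Rgl1 were also among the 8 closest over deviations from group means (r = 0.89 to 0.95), where Car11, Gli2 and Tspan18 joined them. Closest to Vwf alone were Samd4 (0.84), Dkk3 (0.84), Unc45b (0.81), Sdc2 (0.81), Slc2a13 (0.79), Twistnb (0.79), Foxc1 (0.78) and Islr (0.78). None of these was among the genes closest to the members' mean.

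Because the members varied together, the upstream sequences of those with a RefSeq entry are shown; 6 of the 10 genes matched the table (Kdr, Flt1, Tek, Tie1, Emcn and Eng, build GRCm38.p6). Each sequence is the 250 bases before the start, 5′ to 3′ on the gene's strand, and capitals mark AGGAAG or its reverse CTTCCT, a form of the core read by ETS factors, which many endothelial genes use. Printed are 3 of the windows with a match and that of Kdr, which holds neither of these spellings. Other spellings of the core were not searched. Tek, whose r with the mean of the other members was 0.55, had no match either. Whether a match goes with following the other members was not tested, and the Kdr probe was above background on 8 of 15 arrays.
Emcn: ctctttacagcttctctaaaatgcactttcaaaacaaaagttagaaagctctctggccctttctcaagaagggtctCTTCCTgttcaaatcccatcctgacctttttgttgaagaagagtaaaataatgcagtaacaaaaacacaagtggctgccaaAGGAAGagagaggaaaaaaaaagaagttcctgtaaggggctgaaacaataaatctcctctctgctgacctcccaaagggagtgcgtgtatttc
Tie1: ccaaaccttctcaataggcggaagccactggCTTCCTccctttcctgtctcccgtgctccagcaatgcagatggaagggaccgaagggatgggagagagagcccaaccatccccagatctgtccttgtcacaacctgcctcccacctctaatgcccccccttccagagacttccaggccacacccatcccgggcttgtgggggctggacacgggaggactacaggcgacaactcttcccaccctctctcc
Eng: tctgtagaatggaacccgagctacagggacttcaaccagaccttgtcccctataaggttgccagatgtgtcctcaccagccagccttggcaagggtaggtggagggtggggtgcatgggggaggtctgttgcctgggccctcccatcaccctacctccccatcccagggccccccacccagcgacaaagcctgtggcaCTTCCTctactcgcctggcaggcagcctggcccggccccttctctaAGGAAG
Kdr: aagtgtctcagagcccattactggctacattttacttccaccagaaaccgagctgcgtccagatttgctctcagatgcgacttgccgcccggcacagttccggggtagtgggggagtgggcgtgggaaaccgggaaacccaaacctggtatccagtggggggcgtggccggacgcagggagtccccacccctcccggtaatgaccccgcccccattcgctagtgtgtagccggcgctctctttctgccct
Emcn lies at chr3:137340828-137341077 on the plus strand, Tie1 at chr4:118489850-118490099 on the minus strand, Eng at chr2:32646345-32646594 on the plus strand and Kdr at chr5:75978456-75978705 on the minus strand. The 6 letters were found, on either strand, in 4 of the 6 windows (Flt1, Tie1, Emcn and Eng), against 29.5% of 32851 windows of the same length. In Emcn the matches began 174 and 93 bases before the start, in Eng 52 and 6 bases before it, and in Tie1 219 bases before it. A SOX motif, spelled ACAATG and searched on both strands, was in 0 of 6 windows (10.7% of all windows). A motif of the GATA family, spelled AGATAA and searched the same way, was also in 0 of 6 (9.99% of all windows). A match describes the letters of the window and is not evidence of a bound site.

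The wider vessel gene lists, of ligands, receptors, transcription factors and surface proteins outside the 10, held 87 genes, of which 70 were tested. In early ablation 53 of 70 were higher than in early control, with a median difference of 0.27, against 48.3% of all features above 0. This count was not refitted without single arrays or under median scaling, which put 78.5% of all features above 0. Of the 70, limma called 0, and 8 were higher at an unadjusted p under 0.05 (0 lower), where 4.86% of all features were higher at that p. The angiopoietin list was higher for 4 of 4 genes. Angpt2, the angiopoietin released by activated endothelium, averaged 9.01 ± 0.84 (SD, n = 3) against 7.40 ± 0.42, a difference of 1.61 (SE 0.56, adjusted p = 0.522), and Ptprb, the phosphatase of the Tek receptor, 8.57 ± 0.01 against 7.49 ± 0.55, a difference of 1.08 (SE 0.29, adjusted p = 0.469). For both genes every early ablation array lay above every early control array. Of the 70 genes 15, these among them, were higher without overlap and 2 were lower. Of all features 10.1% were higher without overlap, and 21.3% did not overlap in either direction.

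Among the VEGF family, 6 of 7 tested genes were higher in early ablation. Vegfa, the main growth factor for vessels, averaged 10.18 ± 0.55 against 9.27 ± 0.28 (difference 0.90, SE 0.48, adjusted p = 0.612). Vegfd was above background on 3 of 3 early ablation arrays and 0 of 3 early control arrays, and was at least 1.44-fold higher (adjusted p = 0.691). Of the surface list 19 of 21 were higher, including Cldn5, the tight junction claudin of endothelium, with a difference of 1.29 (SE 0.53, adjusted p = 0.538), and Cav1, of caveolae, with 0.83 (SE 0.35, adjusted p = 0.55). Averaged over all genes of that list with a probe, the early groups overlapped. The mean centred level was 0.14, 0.31 and 0.46 on early ablation replicates 1 to 3 and 0.15, -0.38 and 0.18 on early control.

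The transcription factors were split, 12 of 17 higher, with Sox17, an arterial factor, at 1.09 (SE 0.37, adjusted p = 0.518). In the BMP list 6 of 8 were higher, with Id2, a BMP target, at 0.60 (SE 0.19, adjusted p = 0.518). The Notch list went the other way: 6 of 7 tested genes were lower, with Hey1 at -0.62 (SE 0.29, adjusted p = 0.576) and Heyl at -0.51 (SE 0.29, adjusted p = 0.637). Dll4, the Notch ligand of tip cells, was above background on no array.

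In late ablation these 70 genes divided evenly, 35 higher and 35 lower, with a median of -0.01 and 0 called by limma; 1, Aqp1, passed an unadjusted p under 0.05, where 2.1% of all features did. Aqp1, a water channel of endothelium, was below late control on every array (8.80 ± 0.49 against 9.85 ± 0.33, difference -1.05, SE 0.35, adjusted p = 1.0). Of the 70 genes 1 was higher and 1 lower without overlap, where 4.4% of all features did not overlap. Angpt2 was 0.99 higher (SE 0.56, adjusted p = 1.0) with overlapping groups. With anti-CTLA4, 48 of 70 were lower than in late ablation and 57 of 70 lower than in late control, with 0 called by limma in either and 3 and 4 at an unadjusted p under 0.05 (7.76% and 6% of all features). Of all features 49.3% and 47.2% were higher in these comparisons. These counts too were not refitted without single arrays. Pgf, a VEGF family ligand for Flt1, was above background on 3 of 3 late ablation arrays and 0 of 3 anti-CTLA4 arrays and was at least 1.89-fold lower (adjusted p = 0.473).

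Markers of neighbouring cells also had different means in the early comparison, where 48.3% of all features were above 0. All 9 pericyte genes were higher in early ablation, with a median difference of 0.65, and their mean centred level was 0.29 to 0.38 on early ablation arrays against -0.48 to -0.06 on early control. All 6 fibroblast genes were higher (median 1.37, with levels of 0.29 to 1.36 against -0.92 to -0.02), as were all 5 lymphatic endothelial genes (median 1.68, 0.27 to 2.22 against -0.58 to -0.28) and 5 of 6 leukocyte genes (median 0.74). All 7 ductal genes were lower (median -0.42). limma called 0 of the genes in these lists; at an unadjusted p under 0.05, 3 of 6 fibroblast, 3 of 5 lymphatic and 3 of 9 pericyte genes were higher and 3 of 7 ductal genes lower, where 4.86% of all features were higher and 8.72% passed in either direction. Summed over the list, pericyte signal ran from 609.5 to 866.7 in early ablation against 313.1 to 476.9 in early control, and fibroblast signal from 11606 to 15128 against 4385 to 7475. All 6 fibroblast genes were above background on all 15 arrays, but only 3 of 9 pericyte and 1 of 5 lymphatic genes were. The other genes of these 2 lists were above background on some arrays. The lymphatic level was 2.22, 0.69 and 0.27 on early ablation replicates 1 to 3.

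Lyve1, a hyaluronan receptor of lymphatic endothelium and some macrophages, averaged 8.08 ± 0.43 against 5.91 ± 0.49 (difference 2.17, SE 0.75, adjusted p = 0.518). Platelet genes, set beside Vwf because platelets carry it, were higher for 3 of 5 tested (median 0.28); their mean level was -0.23 to 0.38 on early ablation and -0.24 to -0.02 on early control arrays, and Itgb3 was above background on no array. The acinar list was lowest on early ablation replicate 1 (-4.32), but at 1.03 and 1.94 on early ablation replicates 2 and 3. It ran from -0.45 to 1.02 in early control. The part of these cells in the Vwf difference was not tested.

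In late ablation 7 of 9 pericyte genes were lower (median -0.51), with 0 called by limma and 3 lower at an unadjusted p under 0.05, where 2.1% of all features passed in either direction, and their mean level was -0.54 to 0.00 against -0.15 to 0.57 on late control. On late control replicate 2 the fibroblast list was at -1.15 and on late ablation replicate 3 at -0.81, the lowest of their groups, as the endothelial mean was on the same arrays. The anti-CTLA4 arrays went the other way: replicate 3, with the lowest endothelial mean (-0.69), had the group's highest fibroblast level (-0.17). Replicate 1, with the group's highest endothelial mean (0.01), had the lowest fibroblast level of all arrays (-1.20).

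**Figure D5:**
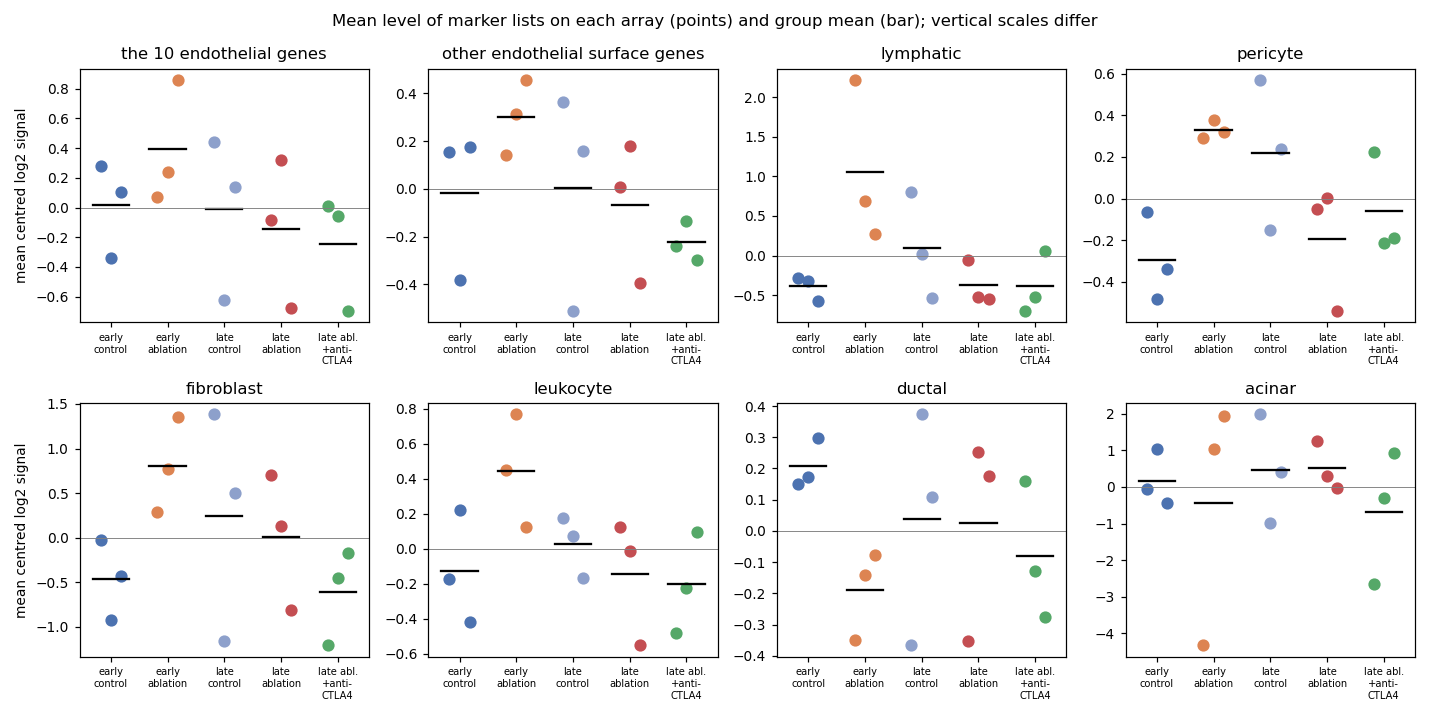
Mean centred log2 signal (vertical axes, own scale per list) of the 10 endothelial genes and of 7 other marker lists in the 5 groups; points are arrays and bars group means. The pericyte, fibroblast and lymphatic lists have all early ablation arrays above all early control arrays and the ductal list has them all below, while the 10 endothelial genes overlap.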

How the data were processed

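The arrays were Illumina MouseWG-6 v2 beadchips hybridised with labelled cRNA, per the labels' protocols; GenomeStudio is named in the submitters' processing notes, with no version. The deposited tables, of 12 and 3 arrays, hold each probe's unnormalized intensity and detection p-value. The authors' deposited value table is a linear intensity and a straight-line function of that signal in each array (medians 16.5 to 28.2); why its slope and offset were chosen stays unknown. Its use was an alternative.

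Intensities were background-corrected and quantile-normalized on the log2 scale with an offset of 16 (neqc, limma 3.58.1, R 4.3.3). Features had detection p under 0.05 on at least 3 arrays; 1 probe, that of the highest mean, stood for each gene. Groups were compared with lmFit and eBayes and Benjamini-Hochberg adjustment over all features (threshold 0.05), over 12 arrays for the first 4 groups and 15 with anti-CTLA4. Scripts were tested on simulated data. Correlations used Python 3.11.15 and SciPy 1.17.1. Precision is limited by the number of arrays. Of the probes, 34885 had 1 symbol, 18 several and 10378 none; 34807 matched RefSeq and 0 symbols changed.

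The members and lists were chosen with earlier results of these data known. From each list, the 2 genes of smallest p and the 2 of highest mean per comparison could be named; others were chosen after their values were seen. Same-numbered late control and late ablation arrays deviated together (correlations 0.59, 0.39 and 0.14), while early pairs did not (-0.08, -0.14 and 0.15). Late replicate 3 was no closer than early replicate 3, so whether the numbers pair the late arrays is uncertain. The main tests compared group means without pairing, and a replicate block was fitted as an alternative. Alternatives were the filter, scaling, background correction, offset, probe choice, array weights, the authors' values, the replicate block, the groups fitted and each array left out.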

Additional observations from a re-analysis of the deposited data

How the results depend on the processing

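None of the 10 genes was called in any comparison by limma under any alternative except Tie1 against late control with array weights (1 of 10). No value reversed past a threshold; of 1169 member values under alternatives, 89 had the opposite sign. Probes near background (Kdr, Tie1) are limited by signal. Counts over all features moved more. In early ablation against early control 0 became 23 with array weights, 1 with only the early groups (chosen after seeing the data) and 0 to 9 without 1 array. In late control against early control it became 216 with array weights and 0 to 2 without 1 array. The stage difference gave 0 to 4 and the shared difference 0 to 2 without 1 array. Against late ablation, anti-CTLA4 gave 1, and 7 with no filter, 2 with median scaling, 5 with every probe, 18 with array weights, 2 with the authors' values and 1 to 9 without 1 array. Against late control it gave 1, and 7 with no filter, 3 with median scaling, 2 with an offset of 50, 7 with every probe, 838 with array weights, 4 with the authors' values and 1 to 12 without 1 array. The cause of these moves was not tested.

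With the replicate block the Vwf difference in early ablation was 1.58 (adjusted p = 0.099 in limma), and the Tie1 difference in late ablation -0.58 (adjusted p = 1.0); the block changed no call of the 10 genes. The numbers did not pair the early arrays.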
